A study of Cocos nucifera with 22 samples.

Results

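Of 25247 genes listed in coconut leaf RNA, 9 were set apart by variety at all times: 4 were higher in the Hainan tall and 5 in the Aromatic dwarf. The genes were chosen by their FPKM (fragments counted on a gene, scaled by its length and by the library's mapped fragments), with a gene missing from a library taken as 0. A gene was kept when its mean FPKM + 0.5 differed at least 4-fold between the varieties, in the same direction, at 0 h, 4 h, 6 d and 10 d. It also needed a mean of at least 5 FPKM in the higher variety at each time. The contrast between the varieties therefore chose the genes and was not tested for them.

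Seedlings of both varieties, about 4 to 5 months old and kept in a greenhouse, were watered with culture medium that was then enriched with 200 mM NaCl. Leaf RNA was taken from untreated seedlings at 0 h and from treated seedlings at 4 h, 6 d and 10 d, with a second dose of salt between the last time points. Each variety had 3 libraries per time and 2 at 10 d, 22 in all. The numbers 1 to 3 in the labels stand for leaves, and the methods state that samples sharing a number came from the same leaf. The methods also give 3 seedlings as the replicates, without saying which leaf was on which seedling.

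Tall and dwarf are the main growth types of coconut. Tall palms mature late and mostly cross-pollinate, whereas dwarf palms flower early and mostly self-pollinate. A gene of which RNA is seen in the leaves of a plant at every sampling, whatever the treatment, is called constitutively expressed there. RNA-seq of whole leaves reads the total of all cells, so fewer cells of a type and less RNA per cell cannot be told apart.

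Each library held 2977359 to 3445467 expected counts and listed 21136 to 22149 genes. All 37 genes of the leaf marker list (chlorophyll-binding, photosystem, oxygen-evolving and Rubisco proteins) were above 0 in every library. Their summed FPKM ran from 84382 to 190976 in the tall and from 48976 to 193662 in the dwarf. The labels name 2 flow cells (AV and AW), each with 11 libraries. All dwarf libraries of 0 h were on AV and all libraries of 10 d on AW, so at these times the flow cell and the time cannot be fully told apart in the dwarf.

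Between 0 h and 6 d or 10 d, dwarf numbers 1 and 3 went against the statement that a number is a leaf, and number 2 did not. Deviations from the group means were compared over 20286 genes with a mean of at least 1 FPKM, as a description, since genes are not independent replicates. In the tall, libraries sharing a number had a mean correlation of 0.18 over 15 pairs, and all 15 were above 0 (0.03 to 0.35). Tall pairs of different numbers had a mean of -0.087 over 30 pairs (-0.27 to 0.14), with 4 above 0.1. Tall number 2 at 0 h had 0.14 with number 3 at 4 h and 0.11 with number 2. Each variety had 2 libraries at 10 d, whose deviations are opposite by construction. Their correlations with any other library are therefore equal and of opposite sign. In the dwarf, the 3 pairs of 0 h with 4 h reached 0.16 to 0.33, but between 0 h or 4 h and the later times the mean of 10 pairs was 0.026, from -0.24 to 0.28. The library numbered 1 at 0 h in the dwarf had a correlation of 0.39 with number 3 at 6 d and of -0.24 with number 1. Number 3 at 0 h had 0.18 with number 1 at 6 d, 0.25 with number 1 at 10 d and -0.06 with number 3 at 6 d. From 4 h to 6 d the values were near 0 either way. Number 1 at 4 h had 0.02 with number 1 and 0.05 with number 3. Number 3 at 4 h had 0.02 with number 3 and 0.09 with number 1. With number 1 at 10 d, number 1 at 4 h had -0.14 and number 3 at 4 h had 0.22. The libraries numbered 2 deviated together at all times (0.08 to 0.28), as did the shared numbers of 6 d and 10 d (0.16 and 0.17). The libraries are called here by the numbers in their labels, none was renumbered, and the cause was not tested.

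**Figure D1:**
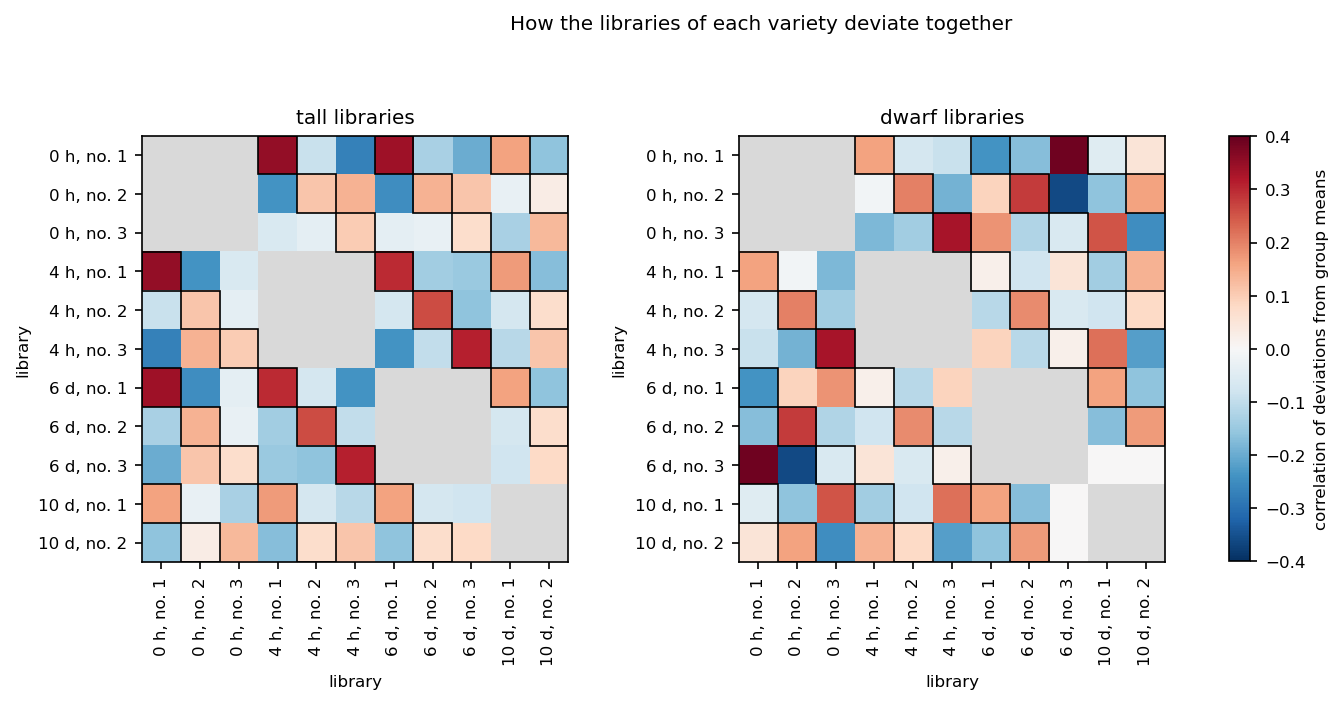
Correlation, across 20286 genes, of the libraries' deviations from their group means in log2(FPKM + 0.5), for the tall (left) and the dwarf (right); black frames mark libraries that share a number, and grey cells are pairs within a time. Framed cells are above 0 throughout the tall, whereas in the dwarf number 1 at 0 h is at 0.39 with number 3 at 6 d and at -0.24 with number 1.

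Few genes met the rule more than once. In the tall direction 60, 43, 56 and 143 genes met it at 0 h, 4 h, 6 d and 10 d, and in the dwarf direction 68, 127, 46 and 55. Of the 247 genes that met it at 1 time or more in the tall direction, 206 did so at exactly 1 time and 4 at all times. Of 229 in the dwarf direction, 182 did so at exactly 1 time and 5 at all times. Most genes that stood 4-fold apart at a given time did not do so at the other times.

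**Figure D2:**
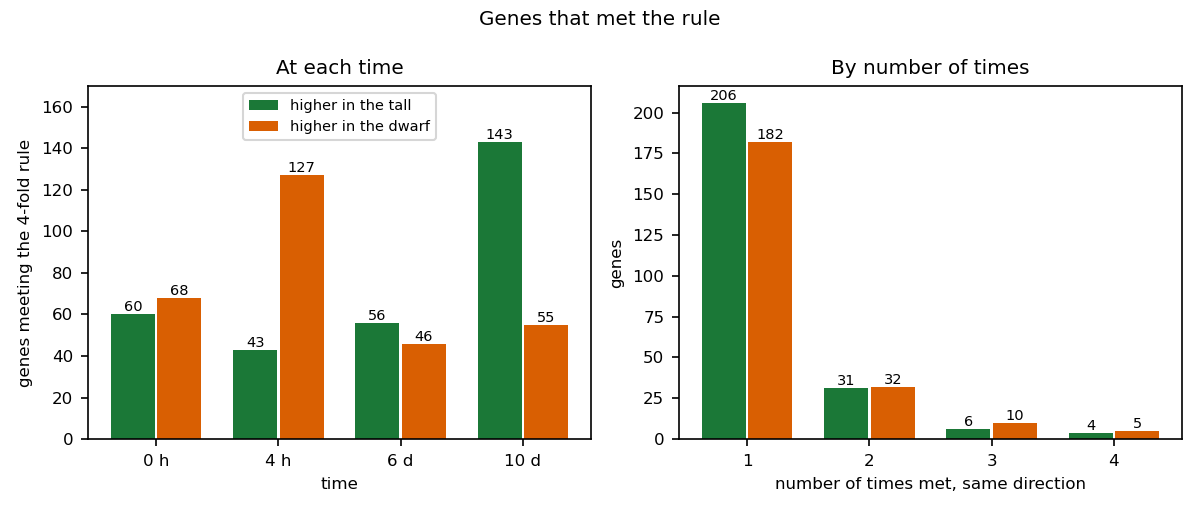
Number of genes meeting the 4-fold rule at each time (left) and the number of times at which a gene met it in the same direction (right), for genes higher in the tall (green) and in the dwarf (orange). The counts drop from 206 and 182 genes at exactly 1 time to 4 and 5 at all times.

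None of the 9 genes carried a product name in the copy of the study's gene table used here, which named 738 genes chosen on the tall libraries. The members are therefore given by identifier only, and no role, sequence or genome position is assigned to them. Beyond the 2 genes of highest mean in each direction, they were named after their values were seen. Since no gene of that table was a member, and the members are 0.0356% of all genes listed, its product classes (photosynthesis, specialised metabolism, defence and lectins, redox and metal binding, protein synthesis and folding, hypothetical proteins) held none, and nothing is read from this about the classes.

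The members were short. Their coding lengths ran from 198 to 2832 bases with a median of 459, against 969 over all genes listed. Under 500 bases were 5 of the 9, against 21.6% of all genes. At about 200 bases, 1 count is worth 1.69 to 1.84 FPKM, so that the minimum of 5 FPKM stood for about 3 counts. For COCehwD007703.1, COCehwD013430.1 and COCehwD022228.1, no library held more than 16 counts.

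**Figure D3:**
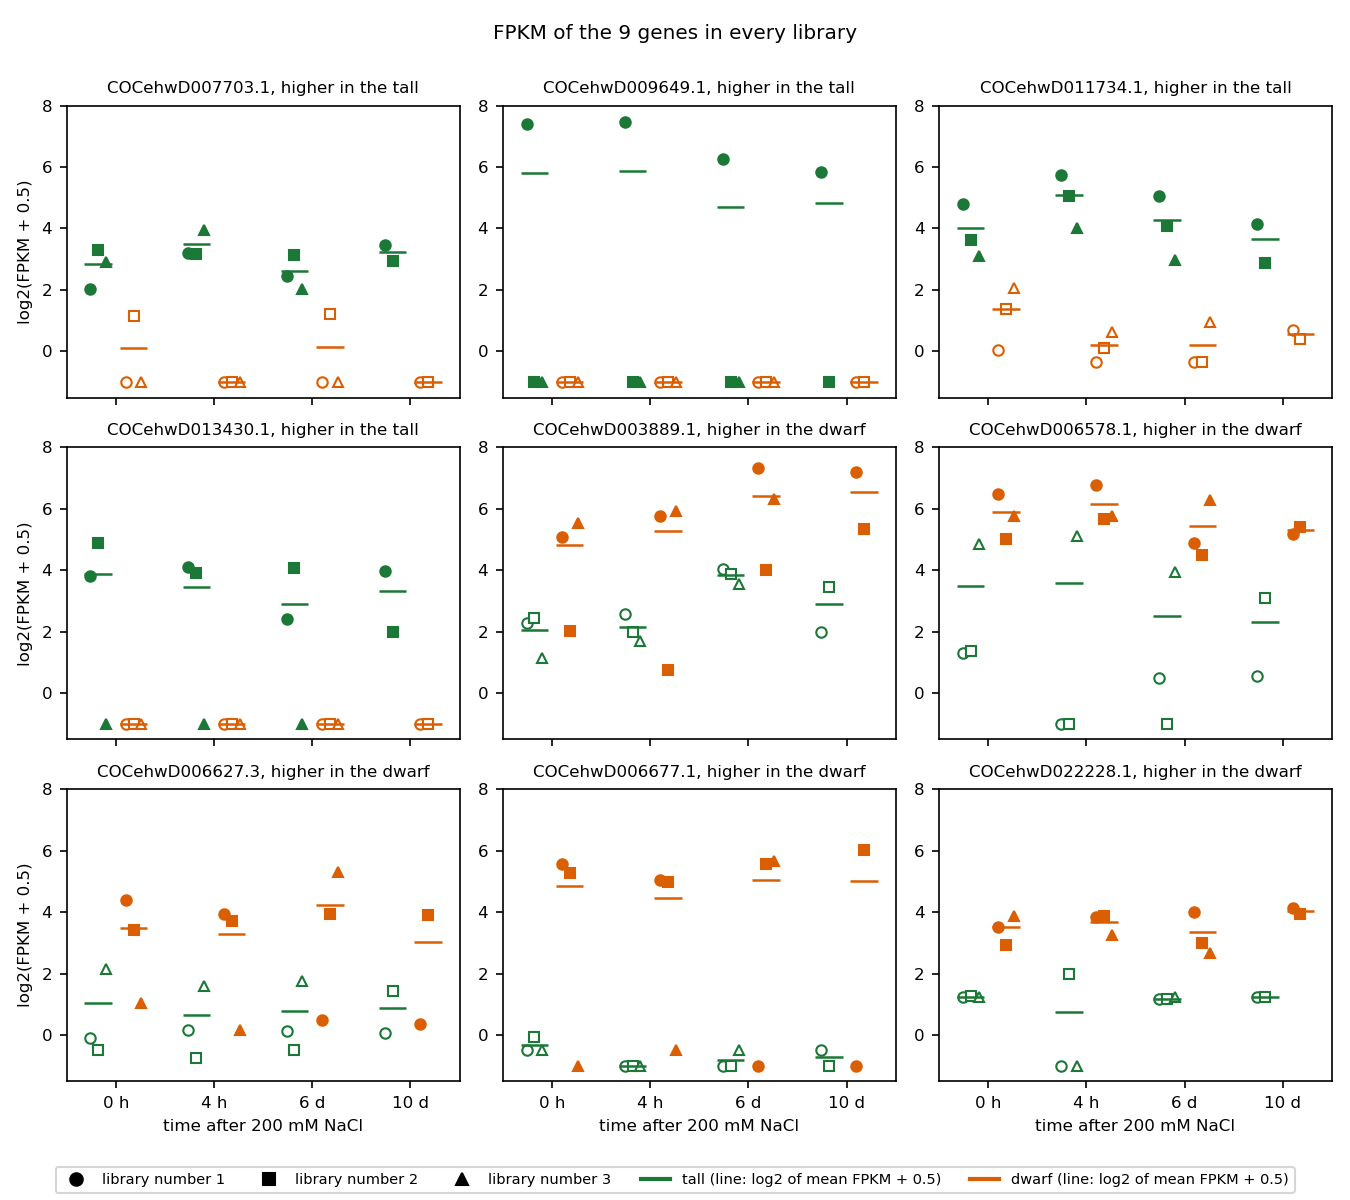
Level of each of the 9 genes in each of the 22 libraries, as log2(FPKM + 0.5), by time; green is the tall, orange the dwarf, filled symbols the variety with the higher mean, symbol shapes the library number, and lines the log2 of the group's mean FPKM + 0.5. COCehwD009649.1 sits at 56.2 to 175 FPKM in the tall libraries numbered 1 and at 0 in the other 18 libraries.

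COCehwD011734.1 (1134 bases) was higher in every tall library than in any dwarf library. In the tall, its FPKM in libraries 1, 2 and 3 was 27.4, 11.7 and 8.11 at 0 h, 52.8, 32.5 and 15.6 at 4 h, and 32.6, 16.4 and 7.34 at 6 d. At 10 d it was 17.1 and 6.92. Number 1 was the highest and the last number the lowest at each of the 4 times. In the dwarf, COCehwD011734.1 was counted in all 11 libraries, from 0.28 to 3.68 FPKM (median 0.82). The differences between the varieties were 6.23-fold at 0 h, 29.8-fold at 4 h, 16.6-fold at 6 d and 8.47-fold at 10 d on the mean FPKM + 0.5. It was the only tall-high gene with more than 2 counts in the dwarf (45 counts, against 859 in the tall).

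COCehwD007703.1 (204 bases) was also higher in every tall library than in any dwarf library, but on few counts. The tall FPKM was 3.55, 9.33 and 7.07 at 0 h, 8.62, 8.42 and 15.1 at 4 h, 5, 8.38 and 3.55 at 6 d, and 10.6 and 7.24 at 10 d. These values are 2 to 8 counts per library, 49 in all. In the dwarf there were 2 counts, 1 each in number 2 at 0 h and at 6 d, and the other 9 libraries were at 0. The ratio of the counts per total was 23.9 with an exact 95% interval of 6.27 to 203, which covers counting error only. The rule chose the gene by this contrast, so the interval is no test of it. Counts were present in every tall library, under each of the 3 numbers.

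COCehwD009649.1 (459 bases) had the highest mean of the tall-high genes, 42.0 FPKM over the 4 times, and all of it came from the libraries numbered 1. These were at 168 FPKM at 0 h, 175 at 4 h, 76.7 at 6 d and 56.2 at 10 d, which is 80 to 256 counts each. The other 7 tall libraries and all 11 dwarf libraries were at 0. The tall means with SD were 55.9 ± 96.9 at 0 h and 58.4 ± 101 at 4 h (n = 3), and 25.6 ± 44.3 at 6 d (n = 3), so each SD exceeded its mean. Against a floor of 3 counts over the dwarf group, the tall libraries together were at least 224-fold higher, and the libraries numbered 1 at least 607-fold. A gene at 0 in 7 of 11 tall libraries does not separate the varieties as such, and the label of the group is not borne out for it.

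COCehwD013430.1 (210 bases) was at 0 in all 11 dwarf libraries and in the 3 tall libraries numbered 3. Number 1 was at 13.7, 16.7, 4.82 and 15.4 FPKM at 0 h, 4 h, 6 d and 10 d, and number 2 at 28.8, 14.6, 16.2 and 3.49. The tall total was 67 counts over 8 libraries, 30 under number 1 and 37 under number 2. Against the same floor of 3 counts, the tall libraries together were at least 21.8-fold higher than the dwarf. The gene was thus read under numbers 1 and 2 at every time and under number 3 at none. In a fit without the low-count filter, its difference between the tall numbers did not pass (edgeR adjusted p = 0.236).

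COCehwD006677.1 (1431 bases) was the dwarf-high gene with the largest difference, 36.2-fold at 0 h, 43.5-fold at 4 h, 57.4-fold at 6 d and 53.5-fold at 10 d. Its dwarf FPKM was 46.6, 37.8 and 0 at 0 h, 32.7, 30.9 and 0.21 at 4 h, 0, 47.0 and 49.7 at 6 d, and 0 and 63.8 at 10 d. It was therefore at 133 to 298 counts in 7 dwarf libraries and at 0 or 1 count in the other 4. Those 4 were number 3 at 0 h and 4 h and number 1 at 6 d and 10 d, with 3 of them on flow cell AV and 1 on AW. Both levels occurred on both flow cells. In the tall, 5 of 11 libraries held 1 or 2 counts and the others none, 6 counts in all.

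COCehwD006627.3 (2832 bases) fell to its lowest dwarf values in the same 4 libraries. There it was at 1.55, 0.62, 0.91 and 0.77 FPKM, and in the other 7 at 10.1 to 39.3. In the tall it was highest in the libraries numbered 3 (3.96, 2.51 and 2.88 FPKM at 0 h, 4 h and 6 d) and in number 2 at 10 d (2.17), and at most 0.63 in the other 7. The varieties overlapped, with 4 dwarf libraries inside the tall range. The smallest difference was 4.35-fold, at 10 d.

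COCehwD003889.1 (1413 bases) had the highest mean of the dwarf-high genes, 61.2 FPKM. In the dwarf it was at 33.4, 3.58 and 46.4 FPKM at 0 h, 54.0, 1.18 and 60.3 at 4 h, 160, 15.6 and 80.1 at 6 d, and 146 and 40.3 at 10 d. Number 2 was the lowest at every time. In the tall it was at 1.73 to 5.47 FPKM at 0 h and 4 h, 11.3 to 16.1 at 6 d, and 3.45 and 10.4 at 10 d. The dwarf libraries numbered 2 at 0 h and 6 d lay inside the tall range, number 2 at 4 h lay below it, and the other 8 above it.

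COCehwD006578.1 (339 bases) was at 21.9 to 109 FPKM in the dwarf (median 50.3). In the tall it was at 28.4, 34.5 and 14.8 FPKM in the libraries numbered 3 at 0 h, 4 h and 6 d, and at 8.02 in number 2 at 10 d. The other 7 tall libraries were at 0 to 2.07. In the libraries numbered 3 at 0 h and 4 h the tall value lay inside the dwarf range. Its differences between the varieties were 5.20-fold to 7.91-fold. At 0 h, 4 h and 6 d they mixed tall libraries near 0 with tall libraries of 14.8 FPKM and more. The 7.91-fold difference was that of 10 d, where the tall libraries were at 0.98 and 8.02 FPKM.

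COCehwD022228.1 (198 bases) was higher in every dwarf library than in any tall library. The dwarf FPKM was 10.99, 7.16 and 14.3 at 0 h, 13.7, 14.0 and 8.93 at 4 h, 15.5, 7.46 and 5.79 at 6 d, and 17.2 and 14.7 at 10 d. The tall libraries were at 0 to 3.49. These values are 3 to 9 counts per library in the dwarf and 0 to 2 in the tall, 69 against 10 in all. The ratio of the counts per total was 7.07 with an exact 95% interval of 3.62 to 15.4 for counting error. The gene was chosen by this contrast, so the interval is no test of it.

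**Figure D4:**
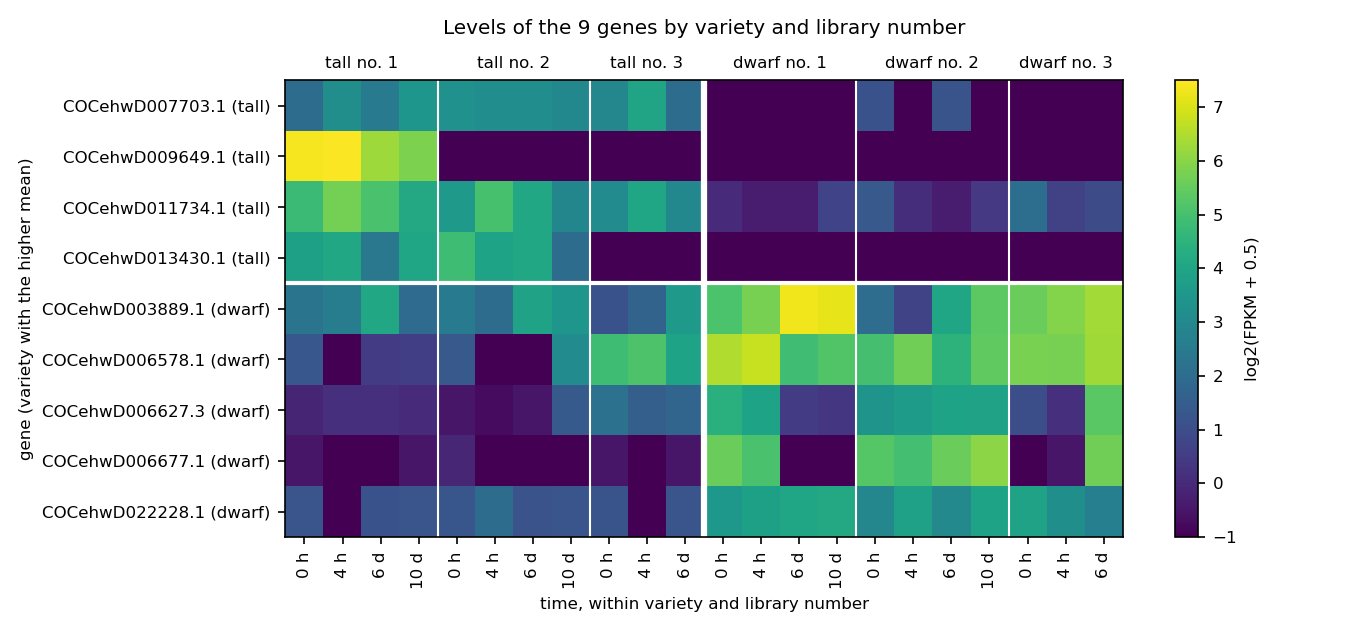
Levels of the 9 genes as log2(FPKM + 0.5), colour scale at the right, with the 22 libraries ordered by variety, library number and time; rows name the gene and the variety with the higher mean. COCehwD009649.1 is seen only under tall number 1, COCehwD013430.1 under tall numbers 1 and 2, and the 4 dark cells of COCehwD006677.1 and COCehwD006627.3 in the dwarf are number 1 at 6 d and 10 d and number 3 at 0 h and 4 h.

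In 3 of the 9 genes all libraries of the higher variety lay above all of the lower one: COCehwD007703.1 and COCehwD011734.1 in the tall direction, where 9 of all genes did so (0.0356% of those listed), and COCehwD022228.1 in the dwarf direction, where 2 did (0.00792%). The rule used the same contrast, so nothing is read from these counts. The other 8 genes without overlap had smallest differences of 1.74-fold to 3.37-fold and had missed the 4-fold threshold. Separation of every library and a 4-fold difference of means had 3 genes in common, which is 3 of the 9 members and 3 of the 11 separated genes. Both criteria use the same contrast, so nothing is read from this overlap either.

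Leaf differences within a variety are not the contrast of the rule, and they were tested with the quasi-likelihood F test of edgeR, with the library number nested in variety. Of the 9 genes, 6 passed the filter on low counts, 2 of the tall-high and 4 of the dwarf-high. Both tested tall-high genes were called in the tall, against 0.584% of all 18840 genes tested. The members were chosen on means, which 1 number with high values can raise, so nothing is read from this share. COCehwD011734.1, for example, was lost from the rule without number 1 at 0 h in the tall. For COCehwD009649.1 nothing is read from the call (edgeR adjusted p = 0.00416), since the gene passed the filter only through the libraries numbered 1, whose values also made it a member. The DESeq2 likelihood ratio test did not call it (adjusted p = 0.975). COCehwD011734.1 was lower under number 3 than under number 1 by a log2 difference of -1.76 (edgeR adjusted p = 0.00771), in 3 of 3 times. Without number 3 at 0 h or number 1 at 6 d it no longer passed (highest edgeR adjusted p = 0.105).

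In the dwarf, 1 of the 4 tested dwarf-high genes differed between the numbers, against 0.324% of all genes. The dwarf-high genes were chosen on means too, so nothing is read from this share either. COCehwD003889.1 was lower under number 2 than under number 1 by a log2 difference of -2.99 (edgeR adjusted p = 0.0148), at each of the 4 times. Without number 2 at 0 h or at 6 d it missed the threshold (highest edgeR adjusted p = 0.0997). COCehwD006677.1 and COCehwD006627.3 had adjusted p of 0.835 and 0.969 in the same edgeR fit, in spite of their wide range, since high and low libraries occurred under the same number.

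Number terms of 0 h and 4 h were also fitted apart from those of 6 d and 10 d. This split was chosen after these genes had been seen to be low under number 3 in the earlier and under number 1 in the later period, so its calls restate that pattern and support nothing. It called 3 of the 4 dwarf-high genes in the dwarf at 0 h and 4 h, against 0.913% of all genes, and 2 of the 4 at 6 d and 10 d, against 0.17%. COCehwD006677.1 and COCehwD006627.3 were called in both periods and COCehwD003889.1 in the earlier one. In the tall, COCehwD009649.1 alone of 2 was called at 0 h and 4 h, against 0.51% of all genes, and at 6 d and 10 d, against 0.324%.

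In the main fit, which had no leaf block, no tested member passed the threshold for a change after salt in the variety where it was high. Each later time was compared with 0 h by edgeR within that variety. With the leaf as a block, COCehwD011734.1 passed at 4 h in the tall, and COCehwD003889.1 at 6 d and 10 d in the dwarf, as given below. The rule asked for at least 5 FPKM there at each time, so genes near 0 at any time were left out beforehand. The shares over all genes lack this limit, and nothing is read from the absence of calls. Among genes of at least 5 FPKM at each time, 23.3%, 22.3% and 9.07% were called in the tall at 4 h, 6 d and 10 d. In the dwarf these shares were 14.6%, 8.86% and 8.67%. In the tall, 0 of 2 members were called at 4 h, against 20.6% of all genes tested, 0 of 2 at 6 d, against 21.1%, and 0 of 2 at 10 d, against 8.08%. In the dwarf, 0 of 4 were called at 4 h, against 13% of all genes, 0 of 4 at 6 d, against 7.97%, and 0 of 4 at 10 d, against 8%. At an unadjusted p under 0.05 there were 1, 0 and 0 members in the tall, and 1, 2 and 2 in the dwarf. DESeq2 called 1 member at 10 d in the tall, COCehwD009649.1, and none elsewhere, and limma called none. That call had a fitted log2 rise of 23.18, although the mean fell from 55.9 FPKM at 0 h to 28.1 at 10 d, and edgeR without the flow cell gave -0.69 (SE 2.35, adjusted p = 0.877), so no change is read from it. A p that misses the threshold does not show that these genes stayed level, since the SD within a time often reached the mean.

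With the leaf as a replicate block, 3 of these comparisons gained a call. COCehwD011734.1 was then higher at 4 h than at 0 h in the tall by a log2 difference of 1.15 (SE 0.21, edgeR adjusted p = 0.00231), against 1.03 (SE 0.47, adjusted p = 0.135) without the block, and it was higher in 3 of 3 numbers. COCehwD003889.1 was higher in the dwarf at 6 d by 2.18 (SE 0.50, edgeR adjusted p = 0.0205) and at 10 d by 3.22 (SE 0.62, edgeR adjusted p = 0.0161). Without the block these were 2.31 (SE 0.91, adjusted p = 0.129) and 2.95 (SE 1.12, adjusted p = 0.11). In the dwarf the block joins libraries whose shared number is in doubt at the later times. In the tall, where it was not tested, COCehwD003889.1 also had higher FPKM at 6 d (11.3 to 16.1) than at 0 h (1.73 to 5.01).

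The fitted changes of some members differed with and without the flow cell term, in both varieties, and not only for genes near 0 in some libraries. In the dwarf at 10 d, COCehwD006578.1 had a log2 difference of -1.53 with the term and -0.27 without it. In the tall, COCehwD011734.1 had 0.60 and -0.12 at 10 d, but 1.03 and 1.13 at 4 h. The median log2 difference of the 2 tested tall-high genes at 10 d was 3.83 with the flow cell term and -0.41 without it. COCehwD006677.1 had a fitted log2 difference of -6.23 at 4 h (SE 2.02, edgeR adjusted p = 0.0531) and of -0.43 (SE 1.33, adjusted p = 0.867) without the flow cell, and its mean FPKM was 28.1 at 0 h and 21.3 at 4 h. The median log2 difference of the 4 dwarf-high genes was -1.63, -1.27 and -2.25 at 4 h, 6 d and 10 d with the flow cell, and 0.02, 0.74 and 0.13 without it. Over all genes tested the median was 0.00, -0.02 and -0.05 in either fit. These fitted values thus depend on whether the flow cell is in the model.

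The place of each member in the rule depended on at least 1 single library, though the loss of most libraries removed no member. When each of the 22 libraries was left out in turn, each of the 9 genes was lost from the rule at least once, COCehwD009649.1 in 4 cases (without any library numbered 1 of the tall) and COCehwD006578.1 and COCehwD006627.3 in 3 cases each. The other 6 were lost in 1 case, or 2 for COCehwD013430.1. A loss means only that a cutoff was missed. COCehwD007703.1, COCehwD011734.1 and COCehwD022228.1 were each lost in 1 case, although their libraries did not overlap between the varieties. With the median per variety and time in place of the mean, 7 tall-high and 10 dwarf-high genes met the rule, among them 2 and 4 of the members.

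Applied to the libraries numbered 1 and 2 alone, the rule gave 8 tall-high and 11 dwarf-high genes, which could be read in the libraries numbered 3, not used in the choice. Of the 8, 1 was at least 4-fold higher in the tall at 0 h, 4 h and 6 d (COCehwD007703.1, 15.1-fold, 31.2-fold and 8.10-fold), and 5 were so at none of these times. Of the 11, 0 were at least 4-fold higher in the dwarf at all 3 times and 5 at none. COCehwD011734.1 was 2.06-fold, 10.4-fold and 4.08-fold higher in tall number 3, and COCehwD022228.1 6.34-fold, 18.9-fold and 2.69-fold higher in dwarf number 3. The genes named here are members, so their number 3 values had also entered the full rule. Their differences in number 3 are therefore not read as a replication. Most of the genes chosen on numbers 1 and 2 did not keep a 4-fold difference in number 3 at all 3 times. There was no number 3 at 10 d. In the dwarf, it is in doubt for numbers 1 and 3 that a number is a leaf. Number 3 there cannot be taken as a leaf unused in the choice. COCehwD006677.1, for example, was 0.70-fold, 1.42-fold and 70.8-fold in number 3 at 0 h, 4 h and 6 d.

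**Figure D5:**
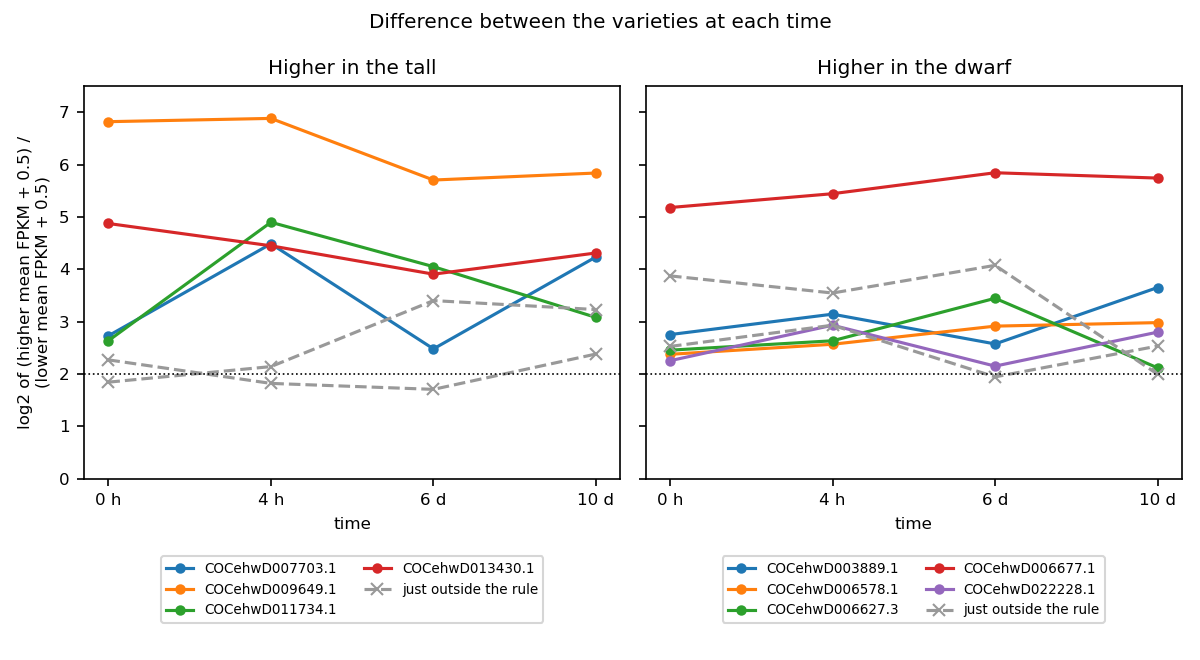
Difference between the varieties at each time, as the log2 ratio of the higher to the lower mean FPKM + 0.5, for the 4 tall-high genes (left) and the 5 dwarf-high genes (right); the dotted line is the 4-fold threshold and grey crosses are the 2 genes just outside it on each side. COCehwD009649.1 and COCehwD006677.1 run above the others at every time, and the lowest points of the dwarf-high genes lie close to the line.

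Genes on either side of the threshold lay close together in the dwarf direction and less so in the tall direction. Just inside it in the tall direction, the smallest differences were 6.23-fold and 5.59-fold, and just outside 3.60-fold and 3.27-fold. In the dwarf direction the genes just inside were at 4.45-fold and 4.35-fold and those just outside at 3.995-fold and 3.86-fold. The outside gene at 3.995-fold, unnamed, had dwarf means of 391, 651, 591 and 243 FPKM, above any mean of the 5 dwarf-high genes.

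Among genes with a product name and at least 5 FPKM throughout, the closest in the tall direction was COCehwD003056.1, 11S globulin seed storage protein 2, a member of a family known for storing nitrogen in seeds. Its means were 419, 777, 583 and 268 FPKM in the tall and 72.9, 293, 34.7 and 32.0 in the dwarf, and it missed the rule at 4 h only (2.65-fold). In the dwarf direction the closest was COCehwD027412.1, an aspartyl protease family protein, of a class of enzymes that cut proteins at acidic pH. Its means were 234, 215, 592 and 1152 FPKM in the dwarf and 30.5, 29.9, 191 and 234 in the tall, and it missed the rule at 6 d only (3.09-fold). Neither is a member, and both lie nearer to the threshold than any other gene with a product name in their direction.

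RSEM gives part counts to reads that match several genes. Values above 0 that were not whole within 0.005 counts made up 25 of 143 in the members, against 26.1% over all genes. They were 12 of 22 for COCehwD003889.1, 10 of 22 for COCehwD006627.3, 2 of 19 for COCehwD006578.1 and 1 of 13 for COCehwD006677.1, and the other 5 genes were whole in every library. The levels of COCehwD003889.1 and COCehwD006627.3 therefore share some reads with other genes, and how those reads were divided was not tested.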

How the data were processed

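RNA-seq of coconut leaves was analysed in 22 libraries, with variety, time and number read from the titles. The authors mapped single-end reads to the annotated genes with Bowtie and deposited the expected counts of RSEM. Beside each expected count the deposited tables give FPKM, also from RSEM. The submitters' processing notes also name BWA. Versions and the annotation's build are not given in the sources used here. Genes at 0 are not listed and were set to 0.

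Members were chosen with the pseudocount of 0.5 FPKM, the fold of 4 and the minimum of 5 FPKM given in the report. The members and lists were chosen with earlier results of these data known. The naming rule took members with a product name (none), and at most 2 others per direction by mean FPKM. Product names came from an incomplete copy of the study's gene table. The gene lengths given are taken as coding lengths, since all are multiples of 3. FPKM was not scaled by that full length. One count was worth 1.77 FPKM at 204 bases and 0.272 at 1134 bases, a wider gap than the lengths give. Short genes thus had more FPKM per count than their coding length alone would give.

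Expected counts were rounded and tested with edgeR 4.0.16 (R 4.3.3): filterByExpr over 8 groups (18840 of 25247 genes), TMM, and quasi-likelihood F tests with groups and flow cell, with Benjamini-Hochberg adjusted p under 0.05 taken as a call. The 3 members below the filter (COCehwD007703.1, COCehwD013430.1 and COCehwD022228.1) entered only the fit without it. SE was the log2 difference over the square root of F. The methods give 3 seedlings as the replicates and state that libraries sharing a number are from 1 leaf. On that statement, libraries of different times are not independent. In the dwarf it is in doubt for the numbers 1 and 3. The pairing of numbers comes from the methods and was checked on deviations from group means. Same-numbered tall libraries had a mean correlation of 0.18 and dwarf libraries of 0.085, with 10 and 8 of 15 pairs over 0.1. Pairs of different numbers had means of -0.087 and -0.042, with 4 and 5 of 30 over 0.1.

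Alternatives were other pseudocounts, TMM-scaled FPKM, medians, a higher minimum, no flow cell, a replicate block, no filter, limma 3.58.1 on log2(FPKM + 1), DESeq2 1.42.0, and each library left out. The scripts were tested on simulated data. Intervals and floors cover counting error only, and they do not test the contrast by which the genes were chosen.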

Additional observations from a re-analysis of the deposited data

How the results depend on the processing

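The numbers of tall-high and dwarf-high genes were 4 and 5. They were 7 and 10 with medians, 2 and 3 with a minimum of 10 FPKM, and 8 and 11 without replicate 3, and a pseudocount of 1 FPKM gave 3 dwarf-high genes. Leaving out each library gave 2 to 5 and 3 to 7. TMM-scaled FPKM and a pseudocount of 0.1 FPKM stayed within 1.5 times. For changes from 0 h, the replicate block gave 1 member at 4 h in the tall and 1 each at 6 d and 10 d in the dwarf, where the paired numbers are in doubt, and changed no other call. Without the filter, 1 was called at 4 h in the dwarf, and DESeq2 called 1 at 10 d in the tall. Leaving out a library gave 0 to 0 in the tall and 0 to 1 at each time in the dwarf, always COCehwD006677.1. For differences between numbers, of 2 and 1 members in the tall and the dwarf, leaving out a library gave 1 to 2 and 0 to 1. DESeq2 gave 1 in the tall, where COCehwD009649.1 had an adjusted p of 0.975. Number terms of 0 h and 4 h alone gave 1 and 3, and those of 6 d and 10 d alone 1 and 2. The causes were not tested. Counts of 2 to 16 per library limit the precision of COCehwD007703.1, COCehwD013430.1 and COCehwD022228.1, and 2 or 3 libraries per group limit every test.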
